A study of Mus musculus with 1615 samples.

Results

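The genes described here are Sez6l, Grip2, Scn4b, Xirp1, Susd5, Sctr, Rasd1, Nrip2, Olfml2a and Plin4, 10 of the 46517 mouse gene identifiers counted in single cells of colon. They were chosen because earlier results of these same data showed them high in vascular smooth muscle, although their names or known biology point to neurons, striated muscle, hormone signalling or fat storage. Their height in vascular cells is therefore how they were picked, and every value that sets vascular cells against another class is given as a description, with no test.

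Vascular smooth muscle wraps arteries and veins and sets their diameter, while pericytes sit on capillaries inside the same basement membrane as the endothelium. Visceral smooth muscle forms the muscle layers that move the gut contents. All 3 share a contractile apparatus, and the vascular and pericyte lineages also share Notch3, a receptor that keeps mural cells differentiated, whereas phospholamban, encoded by Pln, restrains the calcium pump of the sarcoplasmic reticulum.

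Single cells were sorted into plates, and each gave its own library by Smart-Seq2, which covers whole transcripts and uses no molecular identifiers. The 1615 cells came from 11 mice of 5 reporter lines, named ACTA2GFP, CSPG4dsRED, PDGFRaH2bGFP, PDGFRbGFP and ACTA2GFP:CSPG4dsRED, the last carrying both reporters. The labels give an age range of 8 to 30 weeks to every mouse, 2 of them female and 9 male, while the series text speaks of males up to 21 weeks. The tissue is labelled colon, although the protocol text names heart as the dissociated organ, and nothing in the sources used here gives the gates of the sort. No treatment, Cre driver or mutation is named in the labels, so the reporters are all that the groups are said to carry.

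The smooth muscle and pericyte classes came from the line ACTA2GFP:CSPG4dsRED alone, from females 20GG95:3 and 20GG79:1 and male 20GG79:6. Cells were clustered on genes that included none of the 10, and classes were named from markers, so each is written "-like". The 103 vascular smooth muscle-like cells comprised 87 of 20GG95:3, 15 of 20GG79:1 and 1 of 20GG79:6, which left 2 mice with the 5 cells needed for a value. The 175 pericyte-like and 480 visceral smooth muscle-like cells came from 3 mice each. Cells held 45388 to 1046988 gene counts, and the median cell 171229 in the vascular, 119958 in the pericyte and 179226 in the visceral class. Unless a sentence says otherwise, a level is in CPM, a gene's counts scaled to the same total of gene counts, after summing the cells of a mouse and class, and means ± SD are over mice.

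The vascular class was named from its markers, so their levels describe the label and do not test it. The 6 markers of the class (Pln, Acta2, Notch3, Map3k7cl, Mustn1, P2rx1) summed to 9120 and 12706 CPM in the 2 mice, and none of the 6 was under 1 CPM. The same set summed to 5190 to 8406 CPM in visceral and 3660 to 7103 CPM in pericyte-like cells. Pericyte markers summed to 3703 and 4477 CPM in vascular cells, against 7094 to 10289 CPM in pericyte-like cells. Visceral markers summed to 6001 and 7433 CPM in vascular cells, against 9963 to 13305 CPM in visceral cells. In the sets that define neurons, skeletal muscle and adipocytes, by contrast, 5 of 6, 7 of 9 and 6 of 6 genes were under 1 CPM in vascular cells. The neuron set summed to 0.577 and 16.9 CPM, the skeletal muscle set to 22.5 and 49.5 CPM, the cardiac muscle set to 6.06 and 28.2 CPM, and the adipocyte set to 0 and 0.0661 CPM.

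The second vascular mouse rests on the clustering used. All 15 of its vascular cells, and the male's single cell, were placed with pericytes in at least 2 of 3 other clusterings, while 85 of the 87 cells of 20GG95:3 were vascular in all 4. Vascular values without 20GG79:1 are the values of 1 mouse, so each of the 10 genes is given for both mice, and other vascular means over the 2 mice share this limit.

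RefSeq promoter windows in GRCm38.p6, running 250 bases upstream to 50 bases downstream of a start site, were at hand for 6 of the 10 genes (Sez6l, Grip2, Scn4b, Susd5, Olfml2a and Plin4). Xirp1, Sctr, Rasd1 and Nrip2 had none in that table. The Grip2 window, at chr6:91807344-91807643 on the minus strand, lay inside the gene, whose annotated 5′ end is at 91827250. It therefore does not cover that 5′ end. Plin4 and Susd5 are shown because they were among the genes most restricted to vascular cells, and Scn4b because it held a motif other than an E-box. Capitals mark matches, on either strand, to CATTCC (MCAT) or to CANNTG (E-box). All windows are written 5′ to 3′ along the gene, at chr17:56109733-56110032 on the minus strand for Plin4, chr9:114057104-114057403 on the plus strand for Susd5 and chr9:45138374-45138673 on the plus strand for Scn4b.
Plin4: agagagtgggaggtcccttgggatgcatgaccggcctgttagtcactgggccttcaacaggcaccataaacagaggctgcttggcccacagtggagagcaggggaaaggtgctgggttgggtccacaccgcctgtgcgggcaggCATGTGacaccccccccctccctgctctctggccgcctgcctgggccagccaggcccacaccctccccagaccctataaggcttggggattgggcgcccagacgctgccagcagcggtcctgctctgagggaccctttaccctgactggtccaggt
Susd5: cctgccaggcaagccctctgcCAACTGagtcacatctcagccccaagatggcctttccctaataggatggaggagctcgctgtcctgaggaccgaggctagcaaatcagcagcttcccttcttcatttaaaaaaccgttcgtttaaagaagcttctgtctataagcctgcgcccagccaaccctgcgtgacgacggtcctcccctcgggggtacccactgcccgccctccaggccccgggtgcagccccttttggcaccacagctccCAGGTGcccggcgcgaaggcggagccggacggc
Scn4b: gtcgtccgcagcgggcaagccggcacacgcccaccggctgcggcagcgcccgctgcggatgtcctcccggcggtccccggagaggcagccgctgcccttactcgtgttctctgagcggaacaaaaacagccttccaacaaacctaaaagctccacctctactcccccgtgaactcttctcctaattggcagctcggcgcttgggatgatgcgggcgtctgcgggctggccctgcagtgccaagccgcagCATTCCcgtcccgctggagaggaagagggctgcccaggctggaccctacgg

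None of the 6 windows held a CArG box (the serum response factor motif of smooth muscle genes), the MEF2 motif, the RBPJ core TGGGAA or the glucocorticoid response element. Across all 32851 windows these were present in 1.63%, 3.19%, 25.6% and 0.140%. MCAT was found in 1 of the 6, in Scn4b, against 14.7% of all windows. An E-box was found in 3 of the 6, in Susd5, Olfml2a and Plin4, against 72.3%. GC content of the 6 windows ran from 61.7% to 70.7%, above the median of 52.7% over all windows. With 6 windows these shares are only a description.

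All 10 genes had their highest mean in vascular smooth muscle-like cells. Among the 7201 genes with a vascular mean of at least 20 CPM, 16.3% had their highest mean there, and since the genes were chosen for this, nothing is read from that comparison. In 9 of the 10, Sez6l being the exception, both vascular mice also exceeded every sum of every other class, which held for 3.14% of the 7201. Both vascular values came from females of ACTA2GFP:CSPG4dsRED, whereas all endothelial, epithelial, immune and glial sums came from males on other plates, mostly of other lines. Against those classes, cell class cannot be told apart from sex and plate, and only in part from line. The next highest class was pericyte-like for 7 genes, lymphatic endothelium-like for Sez6l, enteric or Schwann glia-like for Olfml2a and visceral smooth muscle-like for Plin4. The vascular mean exceeded that next class by 49.6 times for Plin4, 38.2 times for Xirp1, 37.2 times for Susd5, 12.6 times for Grip2, 12.2 times for Sctr, 6.89 times for Scn4b, 4.52 times for Nrip2, 2.42 times for Olfml2a and 2.06 times for Sez6l, with Rasd1 between Susd5 and Grip2. Cells of unnamed cluster 13 were in none of these classes, by a rule set after their values were seen. They held Rasd1 at 374, Xirp1 at 115, Grip2 at 106, Plin4 at 56.8, Susd5 at 56.3 and Sctr at 32.2 CPM. Every gene but Sez6l was higher there than the mean of its next class, so counting that cluster as a class would lower these ratios. On a scale of CPM + 1, 324 of the 7201 genes were at least 2 times their next class. At least 10 times was reached by 30 on that scale, and 6 of those 30 were among the 10. These ratios depended on the clustering. On the scale of CPM + 1 used for the alternatives, clustering on even-numbered genes lowered Plin4 from 39.7 to 6.04 times, Susd5 to 8.29 times, Xirp1 from 34.6 to 4.75 times, Rasd1 from 21.8 to 4.29 times, Grip2 from 12.2 to 4.55 times and Sctr from 10.9 to 2.01 times. None of the 10 then reached 10 times, and 2 of them, Olfml2a and Sez6l, were under 2 times. Leaving out 1 mouse of the line moved Grip2 to between 7.22 and 45.8 times and Sctr to between 4.27 and 19.7 times.

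**Figure D1:**
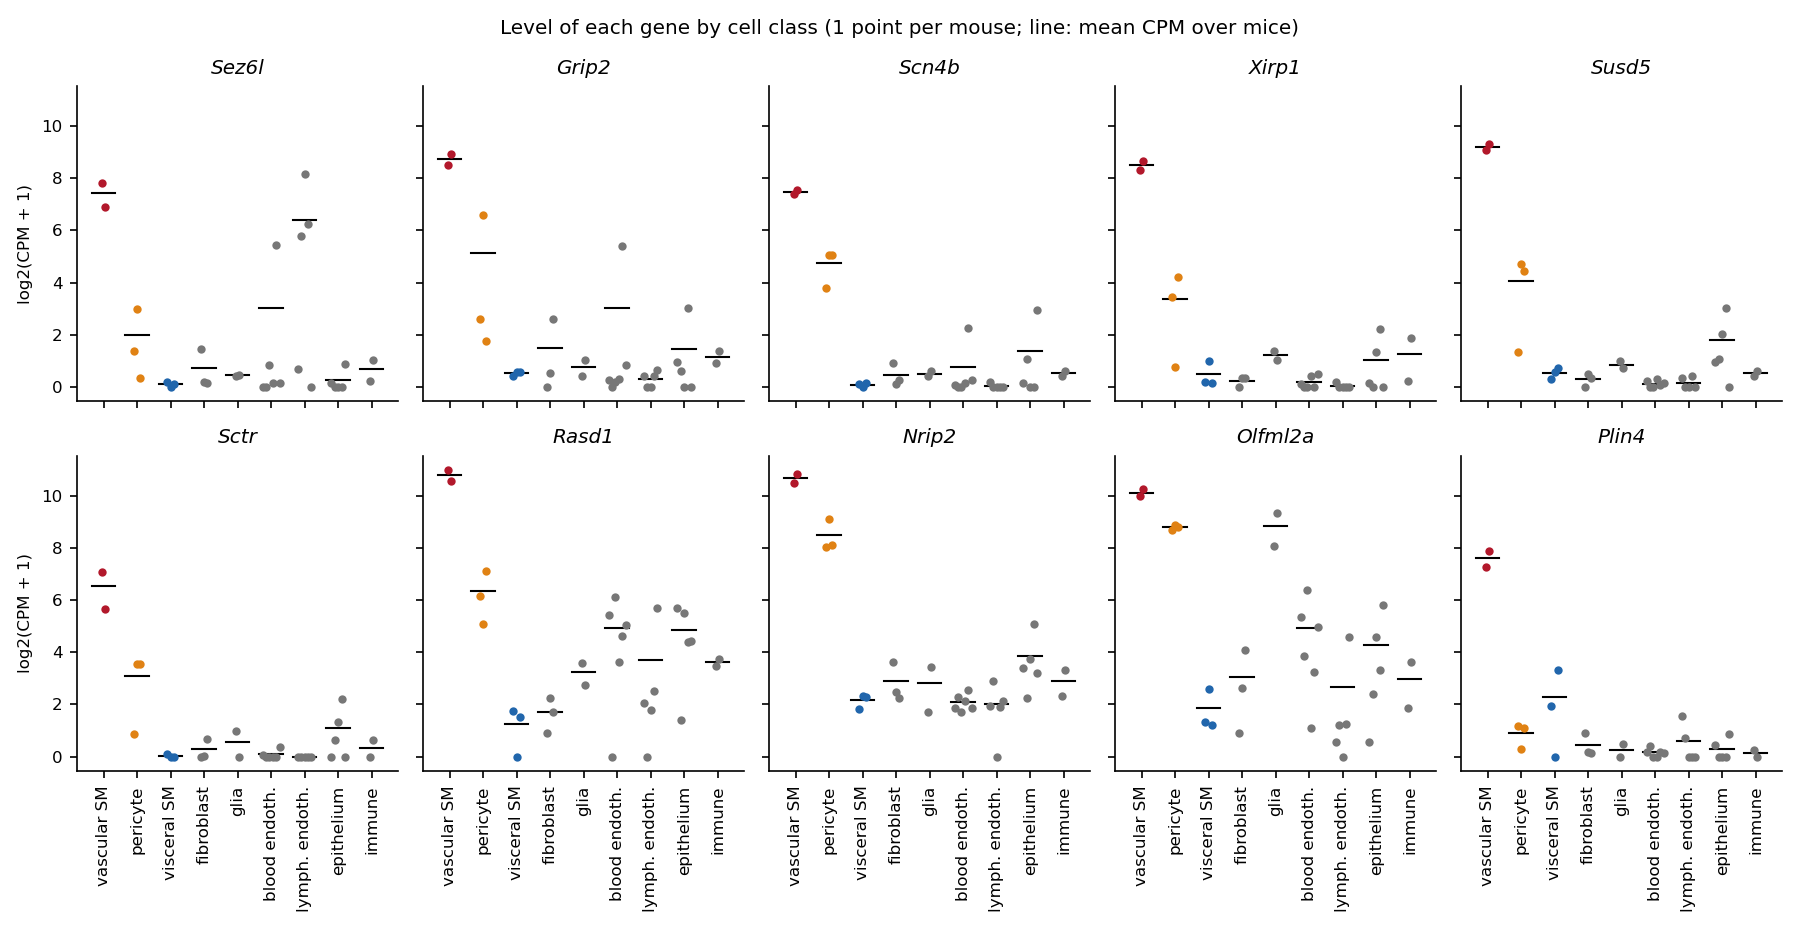
Level of each of the 10 genes in 9 cell classes, as log2(CPM + 1) on the vertical axis, with 1 point per mouse with at least 5 cells of the class and a line at the mean CPM. The 2 vascular points stand above all others in every panel but that of Sez6l, where lymphatic endothelium-like cells of 1 mouse reach 285 CPM. Unnamed clusters are not plotted.

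Per kilobase of exon, which allows levels of different genes to be set side by side, the vascular order was Rasd1 at 1093 CPM per kb, Nrip2 at 433, Olfml2a at 198, Susd5 at 144, Xirp1 at 61.6, Grip2 at 45.6, Sctr at 45.3, Scn4b at 35.5, Plin4 at 33.5 and Sez6l at 28.1 CPM per kb.

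Of the genes named for neurons, Grip2 encodes a multi-PDZ scaffold that binds AMPA-type glutamate receptors at synapses. It lies at chr6:91761509-91827250 on the minus strand of GRCm38. Vascular levels were 365 CPM in 20GG79:1 and 488 CPM in 20GG95:3. Pericyte-like levels were 5.14 CPM in 20GG79:1, 2.40 CPM in 20GG95:3 and 94.4 CPM in 20GG79:6, and visceral levels 0.343 to 0.495 CPM. The male's pericyte-like cells thus stood far above those of both females, and still below either vascular value. Counts of Grip2 were present in 79 of 103 vascular, 53 of 175 pericyte-like and 40 of 480 visceral cells.

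Sez6l, at chr5:112419151-112577185 on the minus strand, encodes a membrane protein with CUB and sushi domains known from neurons. Its vascular levels were 224 CPM in 20GG79:1 and 117 CPM in 20GG95:3. Only 17 of 103 vascular cells had a count, and single cells reached 1916 CPM. In 20GG79:1 the value rested on 2 of 15 cells. Lymphatic endothelium-like cells of 5 male mice gave 0, 0.614, 53.4, 75.8 and 285 CPM, with counts in 14 of 83 cells. These overlapped the vascular values, so for Sez6l the vascular and lymphatic classes did not differ beyond the spread between mice. Pericyte-like cells held 0.277 to 7.03 CPM and visceral cells 0 to 0.150 CPM.

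Scn4b, at chr9:45138395-45154152 on the plus strand, encodes an auxiliary β subunit of voltage-gated sodium channels, known from heart and neurons. It was at 167 CPM in the vascular cells of 20GG79:1 and 187 CPM in those of 20GG95:3. Pericyte-like cells held 12.8, 31.9 and 32.3 CPM, and visceral cells 0 to 0.112 CPM. The vascular and pericyte values did not overlap, and no sum of the other 6 classes passed 6.65 CPM.

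Xirp1, at chr9:120013755-120023598 on the minus strand, encodes Xin, an actin-binding protein of the intercalated discs of heart and of the myotendinous junctions of skeletal muscle. Vascular levels were 316 CPM in 20GG79:1 and 404 CPM in 20GG95:3. Pericyte-like cells held 0.703 CPM in the male and 9.94 and 17.7 CPM in the females, and visceral cells 0.112 to 0.991 CPM. Xirp1 was thus near 0 in the other smooth muscle of the same wall.

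Sctr encodes the secretin receptor, a G protein-coupled receptor that raises cyclic AMP and is best known from pancreatic and bile ducts. It lies at chr1:120006894-120063536 on the plus strand. Vascular levels were 133 CPM in 20GG79:1 and 49.3 CPM in 20GG95:3, and 25 of 103 cells held a count. Pericyte-like cells held 0.842, 10.8 and 10.8 CPM. Visceral cells of all 3 mice together gave 3 counts over 480 cells, at or under the floor of 3 counts, so no fold is given against them.

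Susd5, at chr9:114057140-114098728 on the plus strand, encodes a membrane protein with a sushi domain. Vascular levels were 541 CPM in 20GG79:1 and 634 CPM in 20GG95:3. Pericyte-like cells held 1.52, 20.8 and 25.1 CPM, visceral cells 0.236 to 0.654 CPM, and no sum of another class passed 7.24 CPM.

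Olfml2a, at chr2:38931978-38963753 on the plus strand, encodes a secreted olfactomedin-domain protein of the matrix. It was the least restricted of the 10 besides Sez6l. Vascular levels were 1003 CPM in 20GG79:1 and 1208 CPM in 20GG95:3. Enteric or Schwann glia-like cells, the non-neuronal cells of the gut nerves, held 270 and 644 CPM in 2 male mice, with counts in 34 of 42 cells. Pericyte-like cells held 409, 440 and 473 CPM, within the range of the glia values, so the order of these 2 classes was not resolved. Blood endothelium-like cells held 1.13 to 83.1 CPM and visceral cells 1.33 to 4.95 CPM.

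Rasd1 encodes a Ras-like GTPase first described as induced by dexamethasone, and lies at chr11:59963181-59964944 on the minus strand. Vascular levels were 2026 CPM in 20GG79:1 and 1496 CPM in 20GG95:3. Pericyte-like cells held 33.0, 70.7 and 136 CPM, a range that overlapped the 0 to 67.6 CPM of blood endothelium-like cells. Visceral cells held 0 to 2.38 CPM.

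Vascular cells also held the highest level of immediate-early genes, which dissociation can induce. The 10 genes of that set (Fos, Jun, Egr1, Nr4a1 and others) summed to 25737 and 28861 CPM in vascular cells, 4263 to 5582 CPM in pericyte-like and 3892 to 7222 CPM in visceral cells. The 8 genes of a glucocorticoid response set summed to 3518 and 5303 CPM in vascular cells, against 1352 to 1709 CPM in pericyte-like and 1071 to 1293 CPM in visceral cells, and blood endothelium-like cells, at 1666 to 4167 CPM, overlapped the lower vascular mouse. Across the 103 vascular cells, Rasd1 correlated with the immediate-early sum (Spearman's rho 0.49, and 0.54 in the 87 cells of 20GG95:3). For the other 9 genes rho with that sum lay between -0.24 and 0.06. The part of dissociation in the level of Rasd1 was not tested.

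Nrip2, at chr6:128399296-128416427 on the plus strand, encodes a protein that binds nuclear receptors. It was at 1415 CPM in 20GG79:1 and 1837 CPM in 20GG95:3, and was the one gene of the 10 with counts in all 103 vascular cells. Pericyte-like cells held 262, 275 and 544 CPM. Visceral cells had counts in 190 of 480 cells but only 2.53 to 3.96 CPM. The exons of Nrip2 overlap those of Gm44596, a predicted gene on the same strand, over 195 bases and, more shortly, those of Itfg2 on the other strand. Gm44596 itself was at 539 CPM in vascular cells, so reads of this pair may not be fully parted.

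Plin4, at chr17:56100591-56109803 on the minus strand, encodes a perilipin, a coat protein of lipid droplets found mainly in fat and muscle. Vascular levels were 153 CPM in 20GG79:1 and 234 CPM in 20GG95:3, from 46 of 103 cells. Visceral cells held 0, 2.79 and 8.91 CPM, with 31 of 480 cells positive and a highest single cell of 1406 CPM. Pericyte-like cells held 0.234 to 1.26 CPM, and no sum of the other 6 classes passed 1.91 CPM. The adipocyte genes listed above were near 0 in the same vascular cells.

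Within vascular cells the genes ran in steps from broad to patchy. Nrip2, Olfml2a and Rasd1 had counts in 103, 96 and 95 of the 103 cells. Grip2, Susd5, Scn4b and Xirp1 had counts in 79, 75, 68 and 67 cells, and Plin4, Sctr and Sez6l in 46, 25 and 17. After each cell was thinned to 40000 counts the shares of cells with a count fell from 100% to 98.1% for Nrip2, from 66.0% to 50.5% for Scn4b and from 16.5% to 12.6% for Sez6l. The coefficient of variation across cells ran from 0.487 for Nrip2 to 3.52 for Sez6l.

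**Figure D2:**
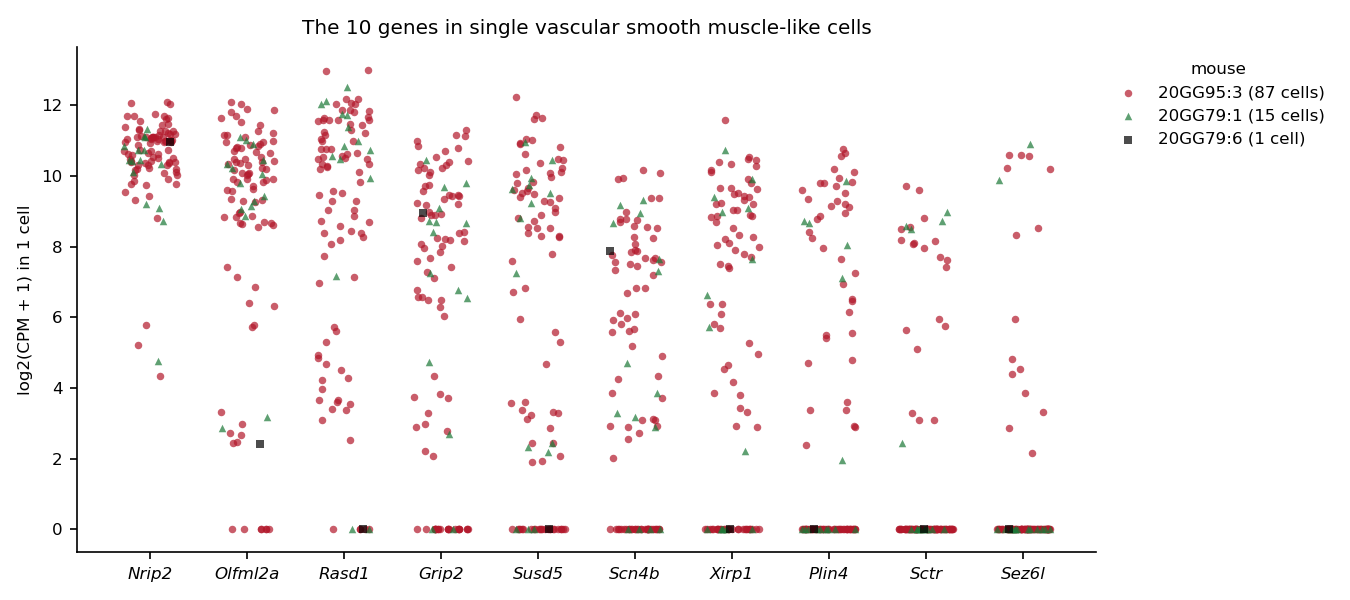
Each point is 1 vascular smooth muscle-like cell, with its log2(CPM + 1) on the vertical axis, the 10 genes on the horizontal axis and the mouse as colour and shape. Nrip2 is present in all 103 cells, while Sctr and Sez6l are at 0 in most cells of both females.

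At a level of 10 CPM or more, a vascular cell held a median of 6 of the 10 genes, with a range of 2 to 9. The median was 6 in 20GG95:3 and 5 in 20GG79:1. At least 5 of the 10 were present in 84 of 103 vascular cells (81.6%, exact 95% interval 72.7% to 88.5%), in 13 of 175 pericyte-like cells (7.43%, 4.01% to 12.4%) and in 1 of 480 visceral cells. These intervals cover counting error only, and the cells of a mouse are not independent samples.

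**Figure D3:**
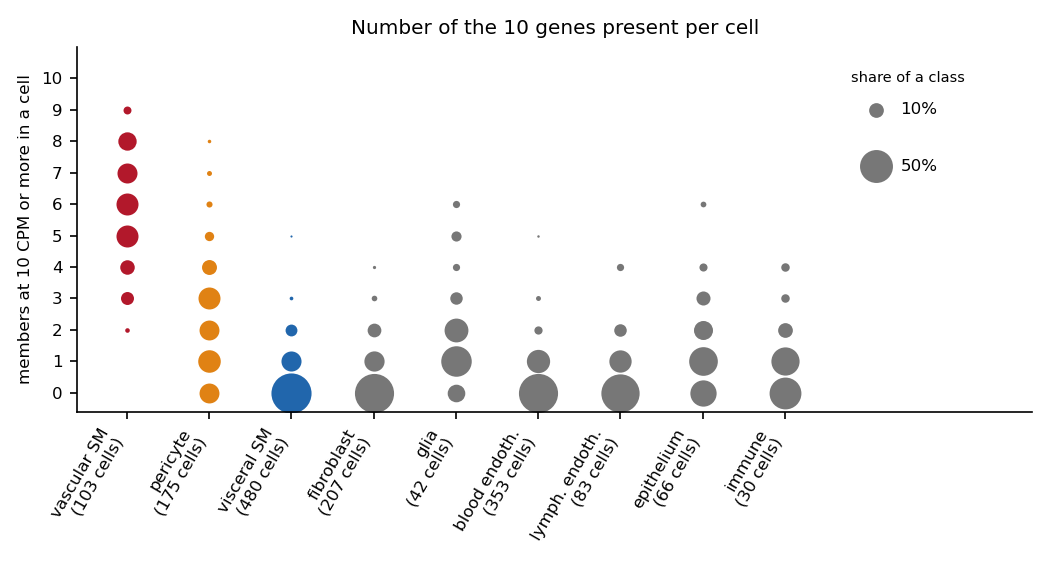
Number of the 10 genes at 10 CPM or more in a cell, by class, with the area of each point giving the share of the class. Vascular cells centre on 6 genes, pericyte-like cells spread from 0 to 8, and 356 of 480 visceral cells hold none.

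Over the 45 pairs, Spearman's rho across the 103 vascular cells had a median of 0.030 and ran from -0.26 to 0.31, the highest being Grip2 with Plin4. Plin4 was also positive with Susd5, Xirp1 and Scn4b, at 0.24, 0.19 and 0.18. Such values are weak, and sparse counts with many zeros do not show whether genes vary independently.

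Levels also moved between the 2 plates of 20GG95:3. On the plate with 47 vascular cells, Plin4 was at 330 CPM, Grip2 at 697 CPM, Xirp1 at 545 CPM and Sctr at 75.1 CPM. On the plate with 40 such cells, these genes were at 115, 229, 227 and 17.2 CPM. Susd5, Rasd1 and Nrip2 went the other way, at 589, 1424 and 1638 CPM on the plate of 47 and 691, 1585 and 2084 CPM on the plate of 40. The plate was not a replicate, and its part in these levels was not tested.

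Some of the 10 genes had unlike levels in the clusters of pericyte-like cells, described here with no test. Those cells formed 3 clusters, of 114, 31 and 30 cells, numbered 12, 14 and 19. Cluster 12, with Rgs5 at 4863 CPM, held Olfml2a at 535 CPM, Nrip2 at 462 CPM and Rasd1 at 136 CPM. Cluster 14, with 25 cells of 20GG79:1 and 6 of 20GG79:6, held Olfml2a at 417 CPM and Nrip2 at 90.4 CPM, with the fibroblast gene Dcn at 1896 CPM. Sctr, at 7.66 and 6.93 CPM, and Sez6l, at 2.11 and 2.56 CPM, were alike in clusters 12 and 14, and Plin4 stayed between 0.800 and 1.15 CPM in all 3.

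Cluster 19, all of mouse 20GG95:3, had Acta2 at 6563 CPM and Notch3 at 2322 CPM, close to the 7334 and 1943 CPM of vascular cells. Pln, by contrast, was at 1.33 CPM there and at 942 CPM in vascular cells. Of the 10 genes, cluster 19 held Nrip2 at 40.0 CPM, and none of the other 9 passed 3.20 CPM. High Acta2 and Notch3 were therefore present in cells almost without the 10 genes. The pericyte label of cluster 19 is itself uncertain. Its pericyte markers summed to 5299 CPM, against 12076 CPM in cluster 12. Cspg4 was at 7.47 CPM, against 1434 CPM in cluster 12, while Rgs5 was at 2016 CPM and Pdgfrb at 1775 CPM. Dcn was at 1569 CPM, and Ren1 and Ccl19 were among the genes that led the cluster.

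The 16 vascular cells that other clusterings put with pericytes also carried the 10 genes. Their Rgs5, at 2248 CPM, lay between the 1042 CPM of the 85 core cells and the level of cluster 12, while their Pln, at 901 CPM, was close to the 956 CPM of the core. Grip2 was at 380 CPM in these cells and 492 CPM in the core, Susd5 at 478 and 643 CPM, Xirp1 at 279 and 404 CPM, and Rasd1 at 1791 and 1518 CPM. Sez6l, at 198 against 119 CPM, and Sctr, at 118 CPM, were higher than in the core, and Plin4 was lower, at 135 against 238 CPM. All 10 genes were several times higher in the 16 cells than in cluster 12 with the exception of Olfml2a, at 887 against 535 CPM.

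**Figure D4:**
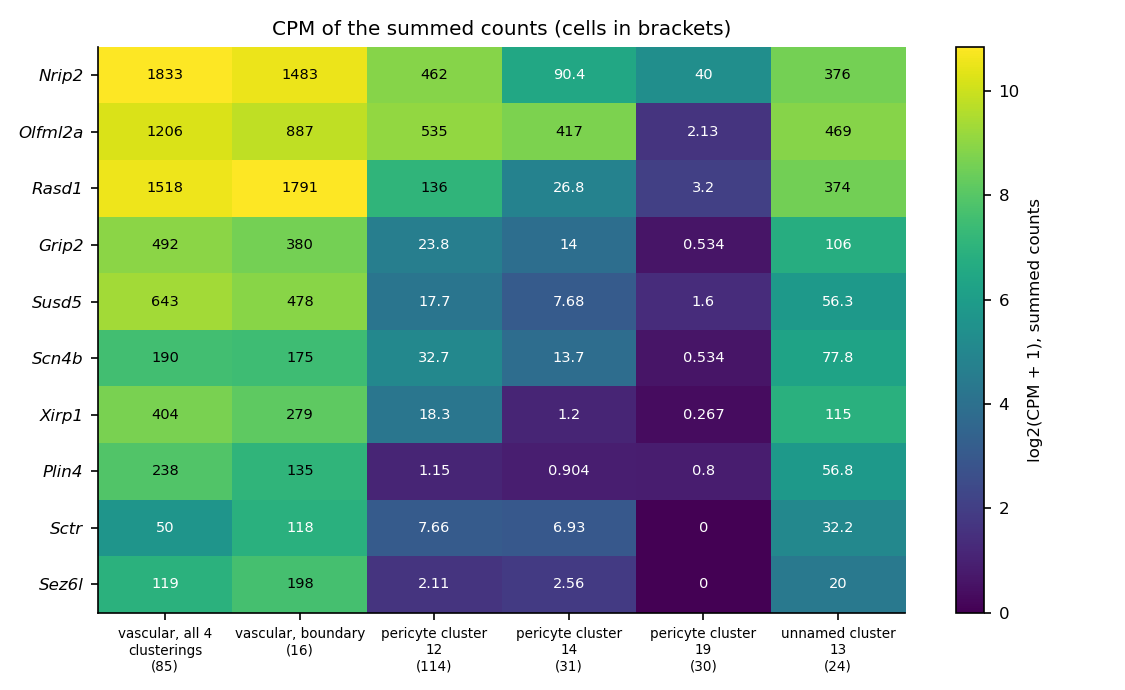
CPM of the summed counts of each of the 10 genes (rows) in vascular core cells, vascular cells that other clusterings place with pericytes, pericyte-like clusters 12, 14 and 19, and unnamed cluster 13. Colour is log2(CPM + 1). Cluster 19 is dark for 9 of the 10 genes, and the 16 boundary cells lie above cluster 12 for all 10 genes.

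The genes were chosen as higher in vascular cells than in both pericyte-like and visceral cells, not by how the latter classes differ, so this comparison was tested. It is not fully independent of the choice, because the border between vascular and pericyte-like cells moved with the clustering. Any vascular cells left among the pericyte-like ones would raise genes chosen as high in vascular cells, which was not tested. Across 3 mice, with the mouse as a block, 8 of the 10 genes passed the filter on low counts, Sez6l and Sctr being left out. edgeR's quasi-likelihood test with Benjamini-Hochberg adjustment called 2 of them, both higher in pericyte-like cells, where 0.0959% of the 13549 genes tested were called in that direction and 0.125% in either. Nrip2 was at 360 ± 159 CPM (SD, n = 3) against 3.45 ± 0.795 CPM in visceral cells, a log2 fold change of 6.41 ± 0.60 (SE) with an edgeR adjusted p of 0.0320. Olfml2a was at 441 ± 32.3 CPM against 2.59 ± 2.05 CPM, a log2 fold change of 7.51 ± 0.77 with an edgeR adjusted p of 0.0320. Both were higher in 3 of 3 mice.

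The other 6 tested genes did not pass. Scn4b (log2 fold change 7.75, edgeR adjusted p of 0.115), Rasd1 (5.90, 0.158), Susd5 (4.15, 0.448) and Grip2 (4.05, 0.481) had higher pericyte values in 3 of 3 mice, and Xirp1 (5.04, 0.706) in 2 of 3. Plin4 had a log2 fold change of -1.61 (0.854), with higher visceral values in 2 of 3 mice. The median of the 8 was 5.47 on the log2 scale, beside 0.06 over all genes tested. Genes near 0 in visceral cells, Scn4b, Grip2 and Susd5 among them, pass the filter on low counts only through their pericyte-like counts. The filter therefore favours positive changes, and nothing is read from this median. DESeq2 called 7 of the 8, Plin4 being the exception, with 5.18% of all genes called. The same filter came before DESeq2, so nothing is read from that count either. No gene of the 10 was called by edgeR when cells with markers of another class were left out, when size factors replaced TMM, or at clustering resolution 2.

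Relatives of the 10 genes were 91 paralogs, genes sharing a name, ligands, binding partners and enzymes. They were listed by family or partnership, whereas the 10 genes were chosen for their vascular level. The relatives are therefore not compared with them. In vascular against visceral cells, 52 were tested in 2 mice, 4 were higher in vascular and 3 in visceral cells. Over all 14941 genes tested, 2.58% and 2.40% were called in those directions, and 4.98% in all. Their median log2 fold change was -0.03, beside -0.22 over all genes. DESeq2 called 8 higher in vascular and 12 in visceral cells, beside 10.5% of all genes. The 4 called by edgeR were Crhr2 and Gcgr, receptors of the secretin receptor family for urocortins and glucagon, the GTPase Rasd2, a paralog of Rasd1, and Ldb3, a Z-disc protein of striated muscle.

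Crhr2 stood at 117 ± 82.4 CPM (SD, n = 2) against 0.186 ± 0.0807 CPM, a log2 fold change of 9.28 ± 0.95 with an edgeR adjusted p of 4.9e-06. Gcgr stood at 22.9 ± 5.48 against 0.0294 ± 0.0113 CPM (9.55 ± 2.19, edgeR adjusted p of 0.0120), and Rasd2 at 101 ± 60.3 against 6.35 ± 8.59 CPM (5.62 ± 1.13, 0.00825). Ldb3 was at 271 ± 80.1 against 103 ± 2.48 CPM (1.49 ± 0.42, 0.0488). Higher in visceral cells were Olfml2b, a paralog of Olfml2a, at 1680 ± 20.9 against 166 ± 54.5 CPM (log2 fold change -3.25, edgeR adjusted p of 4.9e-06), Olfml3 and the filamin Flnc, a partner of Xin. Each named relative had the same direction in 2 of 2 mice.

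Each of these 7 calls was lost under at least 1 alternative. Crhr2 lost its call with 1 cell per sum, and Olfml2b with the spread shared over all classes. Gcgr lost it with the shared spread, without cells holding markers of another class and without the plate of 40 vascular cells. Olfml3, Flnc, Rasd2 and Ldb3 lost it with the shared spread, with 1 cell per sum and without the mouse as a block, and Flnc also without the plate of 40. Rasd2 and Ldb3 were further lost without either plate of 20GG95:3 and without cells holding other markers, and Ldb3 without the filter on low counts and by DESeq2 (adjusted p of 0.0520). With 1 residual degree of freedom in both vascular contrasts, p-values there rest mainly on the spread pooled over genes.

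In vascular against pericyte-like cells, 53 relatives were tested, 1 was higher in vascular and 2 in pericyte-like cells, beside 1% and 0.486% of the 13773 genes tested and 1.49% in all. Ldb3 was higher in vascular cells, at 271 ± 80.1 against 50.4 ± 14.6 CPM (SD, n = 2 mice, log2 fold change 2.66 ± 0.45, edgeR adjusted p of 0.0120). Olfml2b (log2 fold change -1.96 ± 0.33, edgeR adjusted p of 0.0129) and Olfml3 (-4.94 ± 0.87, 0.0177) were lower. None of the 3 was called without the mouse as a block, with the shared spread, with 1 cell per sum or without the plate of 47 vascular cells. DESeq2 called 2 higher in vascular and 11 in pericyte-like cells, beside 6.75% of all genes. In pericyte-like against visceral cells, 0 of 48 tested relatives were called by edgeR, while 12 had an unadjusted p under 0.05 and DESeq2 called 9. Over all 13549 genes, 1058 had an unadjusted p under 0.05.

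The list of close paralogs of the 10 genes, with Nrip1 added for its name alone, held 16 genes. Of these, 5 had no count in vascular cells, 6 had a mean under 10 CPM and 5 lay between 80.3 and 166 CPM. In vascular cells Sez6l2, Grip1, Xirp2, Plin1 and Plin5 had no count in either mouse, and Sez6 was at 0.0992 CPM. Of the sodium channel β subunits related to Scn4b, Scn2b was at 2.26 CPM there and Scn3b at 0.322 CPM. Scn3b was instead highest in lymphatic endothelium-like cells, at 182 CPM.

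Other genes of this list had patterns of their own. Nrip1, listed beside Nrip2 for its name and not as a paralog, was at 2.24 CPM in vascular cells. It was at 24.5 and 32.8 CPM in pericyte-like and visceral cells. Plin2 and Plin3 were spread over all classes, at 80.3 and 157 CPM in vascular cells. Of the receptors nearest to Sctr, Vipr2 was at 134 CPM in vascular and 164 CPM in visceral cells, while Vipr1 was at 6.74 and 0.0688 CPM there and at 55.9 CPM in pericyte-like cells. Olfml2a and Olfml2b ran opposite to each other over the 3 classes, the first falling and the second rising from vascular through pericyte-like to visceral cells.

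**Figure D5:**
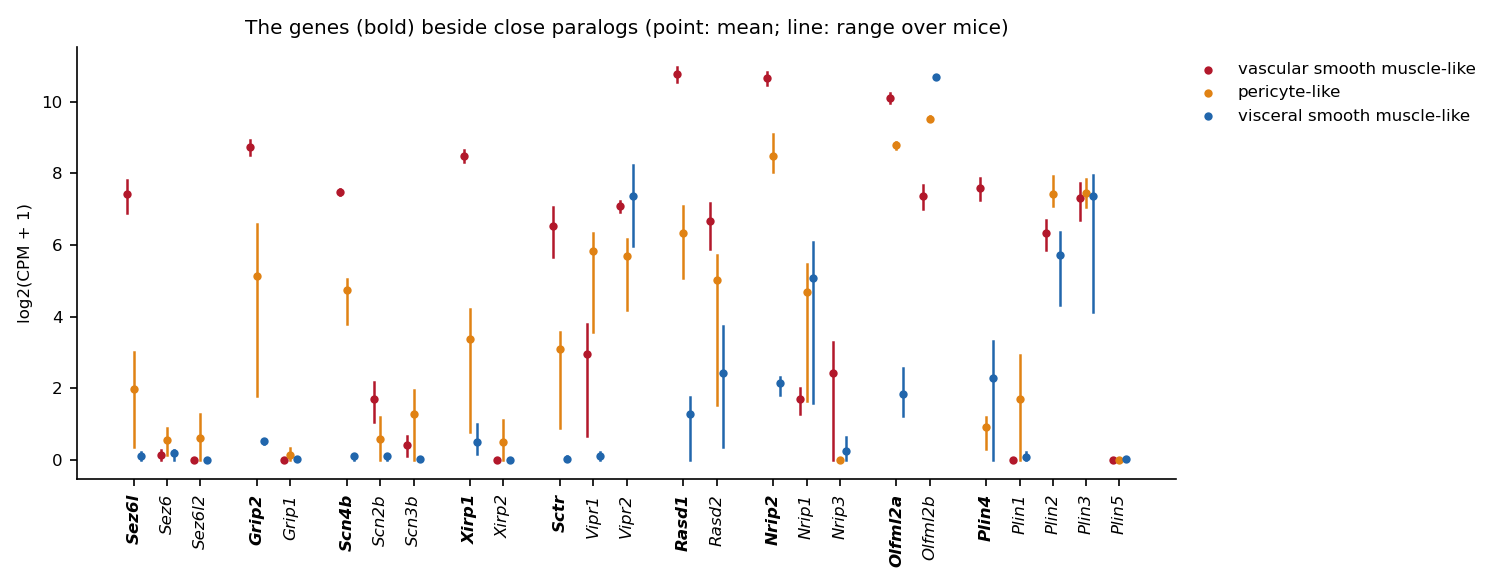
Genes with a listed paralog (bold) beside close paralogs, as log2(CPM + 1) in vascular, pericyte-like and visceral cells. Nrip1 is shown beside Nrip2 for its name and not as a paralog. Points give the mean and lines the range over mice. Olfml2b is highest in visceral cells at 1659 CPM, and Sez6l2, Grip1, Xirp2, Plin1 and Plin5 are at 0 in vascular cells.

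The genes most alike to the 10 in pattern were found by Pearson's correlation, over 31 class-by-mouse sums, with the mean log2(CPM + 1) of the 10. These sums share mice and plates, so r is a description. Among the 10 most alike were Gm44596, Lrrc10b, Map3k7cl, Rergl, Abcc8, Dgkg, Hcrtr1, Drd1 and Kcnab1, with r between 0.91 and 0.93. Gm44596 overlaps Nrip2, and Map3k7cl was a marker used for clustering.

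Several of these are also known outside smooth muscle. Hcrtr1, the orexin receptor 1, was at 68.7 CPM in vascular, 4.58 CPM in pericyte-like and 0.0286 CPM in visceral cells. Drd1, a dopamine receptor, was at 117, 65.9 and 0.0856 CPM. Abcc8, the sulfonylurea receptor of pancreatic β cells, was at 132, 4.65 and 0.370 CPM, and Kcnab1, a β subunit of voltage-gated potassium channels, at 371, 10.4 and 0.344 CPM. Among the 10 genes themselves, r with the mean of the other 9 ran from 0.94 for Susd5 and Sctr to 0.43 for Sez6l.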

How the data were processed

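The table the authors deposited holds raw read counts of every cell for Ensembl genes and spike-ins, not normalized. The submitters' processing notes name bcl2fastq, Bowtie, Bowtie2, featureCounts and Subread, and the builds GRCm38 and mm10. The sources used here give no versions, roles, strand setting or cell filter. Symbols and positions came from GENCODE for GRCm38 (mouse release 21) and matched 46005 of 46517 identifiers. Median gene counts over all cells were 194180. Reads amplified by PCR and not tagged by molecule are not independent, so intervals and floors (3 counts) cover counting error only.

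The 10 genes and all gene lists were chosen with earlier results of these data known. CPM were computed over gene rows without spike-ins. Clustering used 2072 genes, markers included and the 10 genes and their relatives left out, with 20 principal components, 15 neighbours and Leiden at resolution 1 (scanpy 1.11.5, igraph 0.11.9). It gave 19 clusters. A cluster took the class of its highest marker difference. Clusters 13 and 15 stayed unnamed, cluster 15 because mesothelial genes led it and cluster 13 by a rule set after its values were seen, that its summed class markers were under 10% of those of the highest cluster of that class. No cell fell under 20000 gene counts or 1000 detected genes, and no doublet caller was run. In 409 cells, 2 or more markers of a foreign class were high, and an alternative left these out.

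Counts were summed per mouse and class with at least 5 cells and tested with edgeR 4.0.16 (TMM, filterByExpr, robust quasi-likelihood), with the mouse as a block because classes of the same mouse are paired. The Benjamini-Hochberg adjustment ran over genes not used for clustering, at a threshold of 0.05. The SE was taken as the absolute log2 fold change divided by the root of the F statistic. DESeq2 1.42.0 was an alternative. On simulated counts with 200 genes changed by 3 on the log2 scale, the edgeR step recovered 100% in both vascular contrasts (16014 and 14740 genes) and 99.5% in pericyte-like against visceral cells (14505 genes). The simulation gave all genes the same spread, no difference between mice, and changes only to genes with ample counts. It checks that the step runs as meant and does not give its power in these data. To be named, a relative had to be called, to reach 20 CPM on the higher side and to have 1 direction over all mice. Close paralogs, and Nrip1, were named whether called or not. A few results are not reported here. The cells that defined a class were also those tested.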

Additional observations from a re-analysis of the deposited data

Results flagged for a closer look

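Pairs of a gene and a class with 5 or 6 mice and a class mean of at least 5 CPM numbered 10, of which 4 were in blood endothelium-like, 3 in lymphatic endothelium-like and 3 in epithelium-like cells. In 5 of the endothelium-like pairs 1 mouse stood apart from the others. Chance flags about 1 group in 20 with no selection, and that rate cannot be set against these 5, since 1 high mouse can itself lift a class mean over the minimum. Sez6l reached 42.3 CPM and Grip2 41.2 CPM in the blood endothelium-like cells of 19CB4:5. Sez6l reached 285 CPM in the lymphatic endothelium-like cells of 18CB39:3. Rasd1 reached 50.4 CPM and Olfml2a 23.2 CPM in the 5 lymphatic endothelium-like cells of 20GG79:6.

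All 10 genes had signal in 24 cells of male 20GG79:6 that formed cluster 13 and were in no comparison. Their summed levels there were 20.0 CPM for Sez6l, 106 CPM for Grip2, 77.8 CPM for Scn4b, 115 CPM for Xirp1, 56.3 CPM for Susd5, 32.2 CPM for Sctr, 374 CPM for Rasd1, 376 CPM for Nrip2, 469 CPM for Olfml2a and 56.8 CPM for Plin4. In the same cells Pln was at 141 CPM, Rgs5 at 1298 CPM and Dcn at 764 CPM. The single vascular smooth muscle-like cell of that male had over 3 counts of 3 of the genes, Grip2 at 491 CPM, Scn4b at 235 CPM and Nrip2 at 2000 CPM, and 0 counts of 6 others.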

How the results depend on the processing

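All 10 genes kept their highest mean in vascular smooth muscle-like cells under the 11 alternatives run: the mean of the cells' CPM, resolutions 0.5 and 2, even-numbered clustering genes, cells with other markers left out, 1 cell per sum, either plate of 20GG95:3 left out, and each mouse of the line left out. At resolutions 0.5 and 2, with even-numbered genes and without either female, the vascular value was that of a single mouse. The log2 ratio to the next class, in CPM + 1, did not change sign for any gene, but 69 of 110 values moved by more than the SD of the log2 level over the 2 vascular mice. Its lowest and highest values were 0.19 and 1.96 for Sez6l, 0.64 and 1.40 for Olfml2a, 1.01 and 4.33 for Sctr, 1.67 and 3.44 for Scn4b, 1.81 and 2.94 for Nrip2, 2.10 and 5.26 for Rasd1, 2.19 and 5.52 for Grip2, 2.25 and 5.83 for Xirp1, 2.60 and 6.01 for Plin4 and 3.05 and 5.64 for Susd5.

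Of the 10 genes, the 2 called between pericyte-like and visceral cells became 0 with RLE size factors, at resolution 2 and without cells holding other markers, 1 with the spread shared over all classes, 4 without a filter on low counts and 7 with DESeq2. Without the mouse as a replicate block it was 2, and leaving out each mouse gave 2 to 2.

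For relatives in vascular against visceral cells, 7 calls became 20 with DESeq2, 3 without the block, 1 with the shared spread, 1 with 1 cell per sum and 3 without the 20GG95:3 plate of 40 vascular cells. In vascular against pericyte-like cells, 3 calls became 8 without the filter, 13 with DESeq2, 0 without the block, 0 with the shared spread, 0 with 1 cell per sum, 1 without cells holding other markers and 0 without its plate of 47. In pericyte-like against visceral cells, 0 calls became 7 without the filter, 9 with DESeq2, 2 with adjustment over all genes, 3 without the block, 3 at resolution 0.5, 4 with even-numbered genes and 3 with cluster 12 as the only pericytes, an alternative added after the data were seen. Leaving out each mouse gave 1 to 3 there. The cause of these moves was not tested.

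The other clusterings left vascular cells in a single mouse, as did leaving out either female, so the vascular contrasts have no value under those 5 alternatives. The main contrasts had 1 or 2 residual degrees of freedom.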
